A study of Mus musculus with 6 samples.

Results

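Adenylyl cyclases and the subunits of protein kinase A (PKA) were examined in activated regulatory T cells: Adcy3, Adcy6, Adcy7 and Adcy9 among the cyclases, the catalytic subunits Prkaca and Prkacb, and the regulatory subunits Prkar1a, Prkar2a and Prkar2b. These 9 genes were picked by name from the 47643 reference genes of the deposited tables, and the rule uses no measured value, although the set was proposed with earlier results of these data known. The cells were natural regulatory T cells (nTregs) from the spleens of C57BL/6 mice with the Foxp3-DTR/EGFP allele, in which Foxp3 expression marks the cells with a green fluorescent protein and gives them a diphtheria toxin receptor. All libraries came from cells activated for 2 days with antibodies to CD3 and CD28 plus IL-2. There were 3 libraries of cells given 100 nM of an agonist of EP4, a prostaglandin E2 receptor, for 6 h, and 3 libraries of cells given the DMSO vehicle. GFP-positive cells were sorted afterwards for RNA sequencing.

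EP4 couples to the stimulatory G protein, which switches on adenylyl cyclases in the plasma membrane. The cyclic AMP they make binds the regulatory subunits of PKA and frees the catalytic subunits, which phosphorylate enzymes, channels and transcription factors such as CREB. In T cells this pathway is known as a brake on signals from the antigen receptor. Type I regulatory subunits (Prkar1a, Prkar1b) are mostly soluble, and type II subunits (Prkar2a, Prkar2b) are held at membranes and the cytoskeleton by A-kinase anchoring proteins.

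The proximal promoters of Prkar1a and Prkar2a are shown, a choice made after their values were seen, because Prkar1a had the smallest unadjusted p of the members, because Prkar2a was the member called when libraries of the same replicate number were paired, and because CREB, a PKA target, binds a known sequence. The cyclic AMP response element (CRE), TGACGTCA, and its half-site, TGACG, were searched on both strands of RefSeq windows of 300 bases, 250 before and 50 after each annotated start, on GRCm38.p6. Each full element holds a half-site on either strand. Capitals mark the full element in Prkar1a (chr11:109650699-109650998, plus strand) and the half-site, read on the opposite strand, in Prkar2a (chr9:108691893-108692192, plus strand).
Prkar1a: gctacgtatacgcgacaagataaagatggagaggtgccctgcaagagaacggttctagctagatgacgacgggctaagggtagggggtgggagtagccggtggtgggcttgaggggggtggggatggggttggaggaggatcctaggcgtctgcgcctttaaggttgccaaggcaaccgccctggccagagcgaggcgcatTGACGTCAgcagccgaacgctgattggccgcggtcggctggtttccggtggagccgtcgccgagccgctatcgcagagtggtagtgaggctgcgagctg
Prkar2a: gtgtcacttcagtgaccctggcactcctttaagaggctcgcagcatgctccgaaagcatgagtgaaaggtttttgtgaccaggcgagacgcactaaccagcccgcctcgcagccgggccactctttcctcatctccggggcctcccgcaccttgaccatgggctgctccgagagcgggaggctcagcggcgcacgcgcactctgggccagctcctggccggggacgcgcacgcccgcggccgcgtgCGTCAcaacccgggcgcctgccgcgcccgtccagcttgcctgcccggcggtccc
The full element of Prkar1a lies at chr11:109650900-109650907 and begins 49 bases before the annotated start site that this window surrounds. A second, overlapping window of the gene, with another start site, holds the same element after its start. The half-site of Prkar2a begins 4 bases before its annotated start site and ends on it. A full element was present in 588 of 32851 windows of all genes (1.79%), and the half-site in 6837 (20.8%). Counted by gene, 549 of 27025 genes (2.03%) had the full element in at least 1 window, and 6228 (23.0%) had the half-site. Of the 8 members with a RefSeq window, Prkar1a held the full element, and it, Prkar2a, Prkaca, Prkacb, Adcy7 and Adcy9 held the half-site in at least 1 window. Prkar1a had 6 windows, of which 2 held the full element and 3 the half-site, while the other members had 1 to 3 windows each. A gene with more windows has more places for a match. The windows of Adcy3 and Prkar2b held neither. Adcy6 was not matched. A match describes the letters and shows no binding.

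Levels are given in FPKM, a fragment count scaled to library depth and transcript length, which is meant to let genes be set side by side. Prkar1a was the most abundant of the 9 genes, at a mean of 171 FPKM over the 6 libraries, 5.03 times the next gene, and it ranked 343 among the 12186 genes tested, in the top 2.81%. Prkacb followed at 34.1 FPKM, Adcy7 at 27.7 FPKM and Prkaca at 24.1 FPKM. These 3 stood in this order in each of the 6 libraries, although their ranges over the libraries overlapped from each to the next. The coverage column, described below, reversed the order: Prkaca averaged 24.1, Adcy7 9.32 and Prkacb 2.96. Prkar2a averaged 6.88 FPKM, Adcy3 5.30 FPKM, Adcy6 2.92 FPKM, and Prkar2b lay between 2.61 and 3.61 FPKM, again with ranges that overlapped from each to the next. Adcy9 was lowest at 0.315 FPKM, and Adcy6 stood 9.26 times above it.

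**Figure D1:**
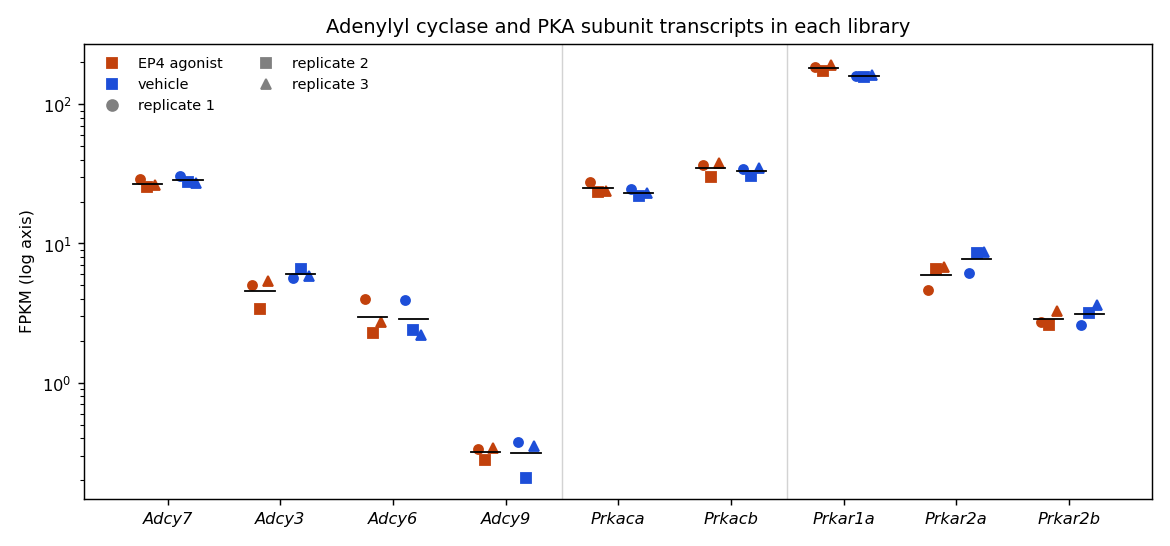
FPKM (log axis) of each member in each library, with the EP4 agonist libraries on the left of each gene and the vehicle libraries on the right; shapes are replicate numbers and bars are group means. Prkar1a lies between 156 and 192 FPKM in every library, and Adcy9 lies below 1 FPKM.

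Within each family a small number of isoforms held most of the RNA. Adcy7 made up 75.4, 80.5 and 75.5% of the summed FPKM of the membrane cyclases in agonist replicates 1, 2 and 3, and 75.3, 74.6 and 76.2% in vehicle replicates 1, 2 and 3. Adcy3 made up 10.7 to 15.3% in the agonist libraries and 13.9 to 17.8% in the vehicle libraries, and Adcy6 made up 7.21 to 10.3% in the agonist libraries and 6.21 to 9.63% in the vehicle libraries. Among the cyclases outside the 9, Adcy4 did not exceed 0.192 FPKM, Adcy5 0.0404 FPKM and Adcy1 0.00574 FPKM, and Adcy2 and Adcy8 were listed at 0 in all 6 libraries. The soluble cyclase Adcy10 did not exceed 0.00843 FPKM.

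**Figure D2:**
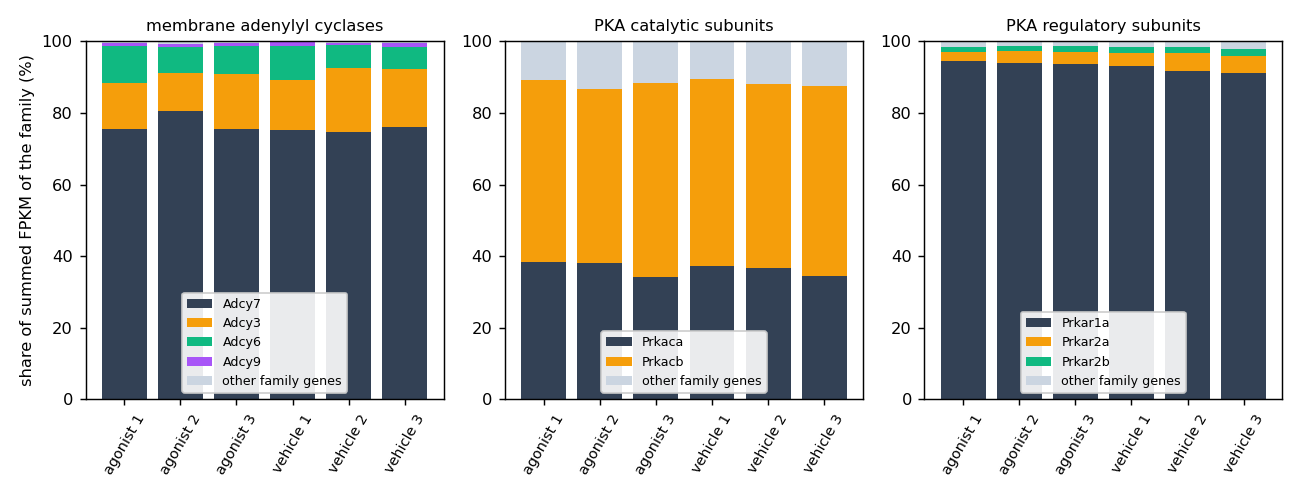
Share of each gene (%) in the summed FPKM of its family, 1 bar per library, agonist libraries left of vehicle libraries. Adcy7 and Prkar1a fill most of their families, with Prkar1a between 91.1 and 94.6%, while Prkaca and Prkacb share the catalytic family.

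The catalytic family was divided mainly between Prkacb, at 48.6 to 54.1% in the agonist libraries and 51.3 to 53.0% in the vehicle libraries, and Prkaca, at 34.3 to 38.4% in the agonist libraries and 34.6 to 37.2% in the vehicle libraries. Prkx, a related kinase, supplied the rest, with 7.82, 8.26 and 8.05 FPKM in the agonist libraries and 6.90, 7.05 and 8.22 FPKM in the vehicle libraries. The order of the catalytic pair depended on which deposited column was read. The files also hold coverage, the mean read depth over a gene, which was put on the FPKM scale by dividing it by the commonest ratio of coverage to FPKM in each library. By FPKM the ratio of Prkaca to Prkacb was 0.634 to 0.783, and by coverage it was 7.28 to 8.96, and Prkacb stood at 2.96 by coverage against 34.1 by FPKM. Prkacb has 8 annotated transcripts of 493 to 4347 bases (GENCODE M21), and Prkaca has 2. By coverage Prkacb also lay below Prkx, which stood between 4.90 and 5.86. Adcy3 and Adcy6 changed order too, at 1.57 and 2.92 by coverage against 5.30 and 2.92 by FPKM. So did Prkar2a and Prkar2b: Prkar2a averaged 1.22 by coverage against 6.88 by FPKM, a gap of 5.63 times, while Prkar2b averaged 2.68 by coverage. All these coverage values come from the row of the annotated gene. Coverage of the assembled locus that overlaps each gene, scaled alike, kept the FPKM order of both these pairs in every library. Prkar2a stood at 3.71 to 6.96 and Prkar2b at 2.53 to 3.499. Adcy3 stood at 4.33 to 5.73 and Adcy6 at 2.12 to 3.49. By that coverage Prkacb stood at 15.4 to 19.2, above Prkx, except in agonist replicate 1, at 4.11. Prkaca still lay above Prkacb in every library. Prkar1a, at 83.7, and Adcy7, at 9.32, led their families on both columns. The cause of the gap between the columns was not tested.

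**Figure D3:**
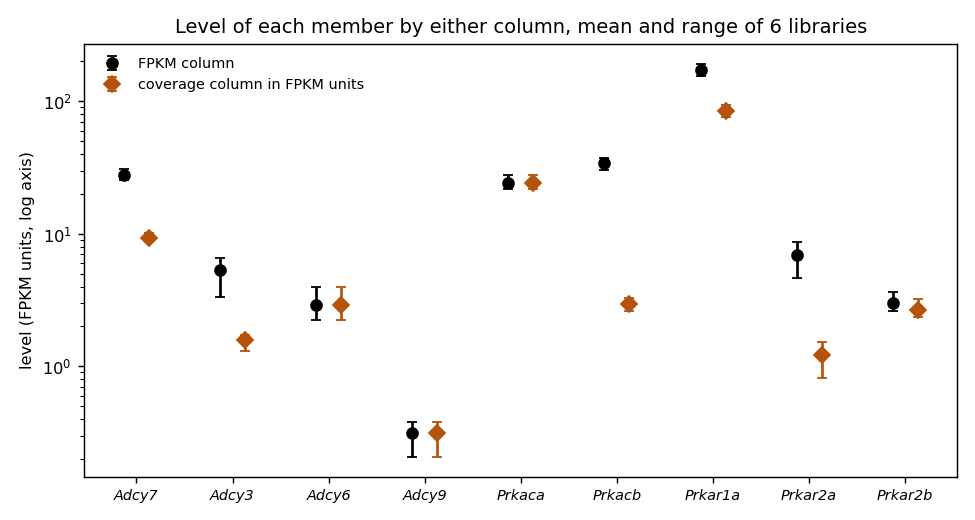
Level of each member (FPKM units, log axis) from the FPKM column and from the coverage column, as mean and range of 6 libraries. The columns coincide for Prkaca, Adcy6 and Adcy9 and differ by 11.5 times for Prkacb.

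The agonist and vehicle libraries were compared with limma on log2(FPKM + 1), with Benjamini-Hochberg adjustment over the 12186 genes that reached 1 FPKM in at least 3 libraries. Of the 9 members, 8 were tested and Adcy9 was under that minimum. None of the 8 passed an adjusted p of 0.05 in either direction, against 0.345% of all tested genes called higher and 0.0492% called lower, and 1 of them, Prkar1a, had an unadjusted p under 0.05. The members' median log2 fold change was -0.01, beside -0.03 over all tested genes. The values of Prkar1a did not overlap between the groups on the higher side and those of Adcy3 on the lower side, where 7.26% and 12.1% of all tested genes did the same. A fit with the replicate number as a block, since same-numbered libraries deviated together, called 4.09% of genes higher and 6.41% lower, and it called 1 member, Prkar2a, as lower. The labels do not state whether replicates are separate mice or cultures. The p-values without the block reflect only how far the libraries of a group scatter. Those with the block reflect how far the differences between same-numbered libraries scatter. Either scatter may be technical. In bulk RNA, fewer cells with a transcript and less of it in each cell cannot be told apart.

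**Figure D4:**
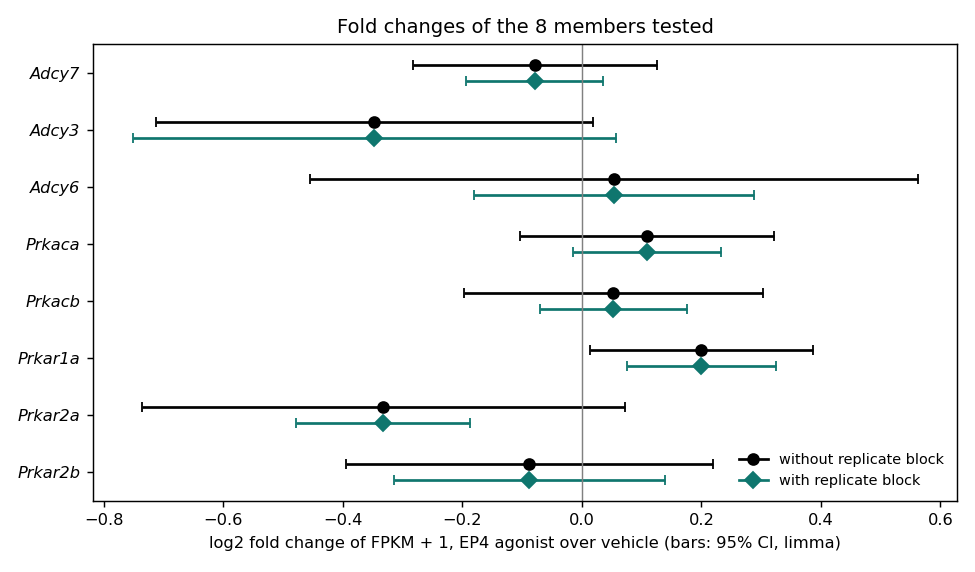
Log2 fold change of FPKM + 1 (agonist over vehicle) of the 8 tested members, with 95% confidence intervals from limma, without (circles) and with (diamonds) the replicate block. Without the block only the interval of Prkar1a lies clear of 0; with it, the intervals of Prkar1a and Prkar2a do.

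Adcy7, the main membrane cyclase, had 29.2, 25.2 and 26.4 FPKM in the agonist libraries and 30.7, 27.5 and 27.2 FPKM in the vehicle libraries. The groups overlapped, and its log2 fold change was -0.08 (95% interval -0.28 to 0.13, adjusted p = 0.736, limma). Adcy3, a cyclase also known from olfactory neurons, had 5.04, 3.36 and 5.35 FPKM in the agonist libraries and 5.68, 6.59 and 5.80 FPKM in the vehicle libraries. All 3 agonist values lay below all 3 vehicle values, with agonist replicate 2 the lowest. Its log2 fold change was -0.35 ± 0.16 (SE, n = 3 each; adjusted p = 0.380, limma), and it was -0.18 without agonist replicate 2 and -0.12 from the coverage column. Cenpo, which overlaps Adcy3 on the opposite strand, had 7.07 to 9.40 FPKM, and the strand setting of the counting is not given in the sources used here.

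Adcy6, which calcium inhibits, had 3.98, 2.26 and 2.72 FPKM in the agonist libraries and 3.93, 2.41 and 2.22 FPKM in the vehicle libraries. Replicate 1 was highest in both groups, which overlapped, and the log2 fold change of 0.05 (adjusted p = 0.941, limma) is reversed in sign by several alternatives. Adcy9 was at 0.337, 0.279 and 0.340 FPKM in the agonist libraries and 0.377, 0.207 and 0.352 FPKM in the vehicle libraries (exact two-sided permutation p = 1). Gm6142 overlaps Adcy9 on the same strand at 0.529 to 1.67 FPKM, so reads of the pair may be mixed.

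Neither catalytic subunit passed the test, and the groups overlapped for both. Prkaca had 27.7, 23.6 and 23.8 FPKM in the agonist libraries and 24.5, 21.9 and 22.8 FPKM in the vehicle libraries, and it was higher in the agonist library of all 3 same-numbered pairs (log2 fold change 0.11, 95% interval -0.10 to 0.32, adjusted p = 0.633, limma). Prkacb had 36.6, 30.1 and 37.5 FPKM in the agonist libraries and 34.5, 30.6 and 35.0 FPKM in the vehicle libraries, with a log2 fold change of 0.05 (95% interval -0.20 to 0.30, adjusted p = 0.870, limma). A ratio of catalytic to regulatory RNA set summed Prkaca and Prkacb, without Prkx, over all regulatory genes, Prkar1b included. This ratio was 0.307 ± 0.0189 in the agonist libraries and 0.326 ± 0.0201 in the vehicle libraries (SD, n = 3 each, exact two-sided permutation p = 0.3). It was lower in the agonist library of all 3 same-numbered pairs (exact sign-flip p = 0.25, the smallest that 3 pairs allow). With 3 libraries a group, 0.1 is the smallest p this test can give.

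No regulatory subunit passed without the block. Prkar1a, the type I subunit whose loss frees PKA activity, had 185, 172 and 192 FPKM in the agonist libraries and 158, 156 and 163 FPKM in the vehicle libraries. No agonist value lay among the vehicle values, and the ratio of the group means was 1.15. The log2 fold change was 0.20 ± 0.08 (SE, n = 3 each; 95% interval 0.01 to 0.39), with an unadjusted p of 0.0389 and an adjusted p of 0.331 in limma. Blocking by replicate number gave an adjusted p of 0.0658, and upper quartile scaling with the block gave 0.0494, so the call turned on the settings. Prkar2a, the type II subunit, had 4.62, 6.52 and 6.81 FPKM in the agonist libraries and 6.12, 8.58 and 8.65 FPKM in the vehicle libraries. The groups overlapped, since replicate 1 was low in both, but the agonist library was lower in all 3 pairs by a similar margin, with log2 differences of -0.34, -0.35 and -0.30. Without the block its log2 fold change of -0.33 did not pass (SE 0.17, adjusted p = 0.441, limma). With the block it fell (SE 0.06, adjusted p = 0.0345, limma), and leaving out pair 1, 2 or 3 gave log2 fold changes of -0.33, -0.32 and -0.35 with adjusted p-values of 0.0841, 0.156 and 0.146 (limma). Those fits on 4 libraries called 241, 0 and 1 of all tested genes, against 1279 with all pairs. Prkar2b, the other type II subunit, had 2.74, 2.62 and 3.27 FPKM in the agonist libraries and 2.61, 3.16 and 3.61 FPKM in the vehicle libraries (log2 fold change -0.09, adjusted p = 0.816, limma).

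**Figure D5:**
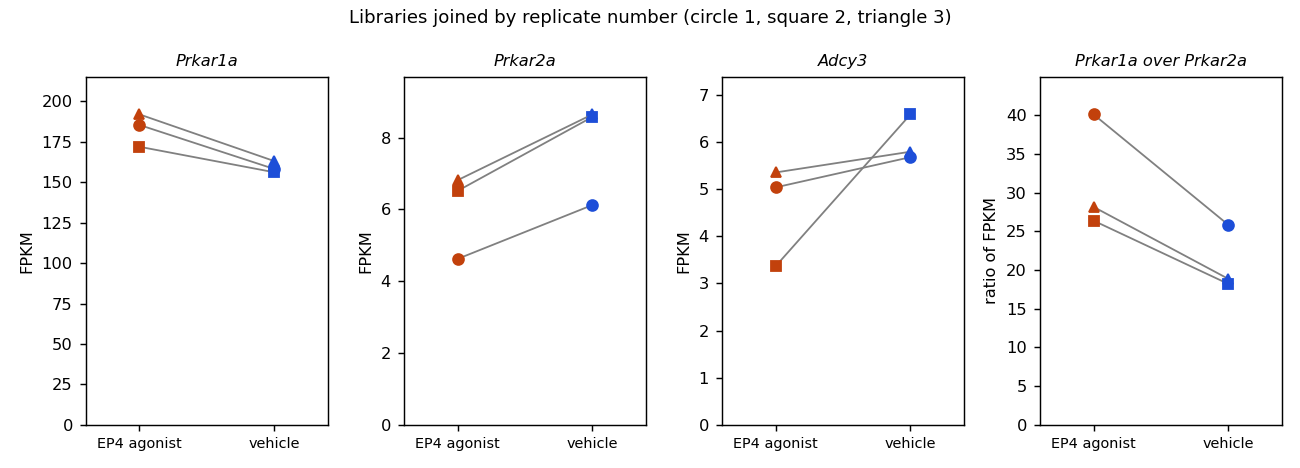
FPKM of Prkar1a, Prkar2a and Adcy3, and the ratio of Prkar1a to Prkar2a, in agonist and vehicle libraries; lines join libraries of the same replicate number. Prkar1a is higher and Prkar2a lower in the agonist library of every pair, and the ratio is 26.4 to 40.1 in agonist libraries against 18.2 to 25.8 in vehicle libraries.

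Type I over type II regulatory RNA was 25.6, 19.1 and 19.3 in the agonist libraries and 18.4, 13.5 and 13.6 in the vehicle libraries, without overlap (means 21.3 ± 3.72 and 15.2 ± 2.82, SD, n = 3 each). The difference in means of 6.16 was 4.01 without agonist replicate 1, and that of Prkar1a over Prkar2a was 6.32 in place of 10.6. The share of Prkar1a in the regulatory family was 94.6, 93.9 and 93.7% in the agonist libraries and 93.2, 91.6 and 91.1% in the vehicle libraries, also without overlap. Each of these reached the smallest exact two-sided permutation p of 0.1, and 0.325 after adjustment over the 13 shares and ratios tested. All of them hold the values of Prkar1a, so they are not separate results. The ratio of Prkar1a to Prkar2a was not among the ratios planned. By coverage the type I to type II ratio was 25.4 ± 2.86 in the agonist libraries and 19.8 ± 3.11 in the vehicle libraries (exact two-sided permutation p = 0.2), and Prkar1a over Prkar2a was 86.8 ± 20.4 in the agonist libraries and 57.6 ± 11.4 in the vehicle libraries (SD, n = 3 each). The share of Adcy7 among the membrane cyclases did not separate the groups (exact two-sided permutation p = 0.4). Prkar1b, the second type I gene, had 3.22, 2.13 and 2.89 FPKM in the agonist libraries and 2.75, 2.56 and 3.66 FPKM in the vehicle libraries, with overlapping groups. By the root mean square difference of mean-centred log2 values over the 6 libraries, the genes most like Prkar1a in pattern were Wapl at 0.0218, Zcchc6 at 0.0229 and Zfp62 at 0.0229.

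Other genes of the pathway are given for comparison, from lists chosen with earlier results of these data known. Of the A-kinase anchoring proteins, which tether PKA, 10 of 16 were tested and none passed in either fit. Akap8 had 31.4 ± 1.89 FPKM in the agonist libraries and 35.1 ± 1.34 FPKM in the vehicle libraries (SD, n = 3 each, adjusted p = 0.415, limma). It was the 1 of these 10 with all agonist values below all vehicle values, where 12.1% of all tested genes did the same. Of 4 tested G protein alpha subunits that act on cyclases, 1 rose, where 0.345% of all tested genes rose. This was Gnal, which stimulates cyclases. It had 11.2, 10.4 and 8.98 FPKM in the agonist libraries and 4.03, 2.31 and 1.83 FPKM in the vehicle libraries (adjusted p = 0.0329, limma). The far more abundant Gnas had 223 ± 39.3 FPKM in the agonist libraries and 226 ± 18.3 FPKM in the vehicle libraries (SD, n = 3 each, adjusted p = 0.959, limma). Gnai2 and Gnai3 did not pass either (adjusted p = 0.490 and 0.965, limma). Of 9 tested cyclic AMP response genes, 4 rose and none fell (Fosl2, Sik1, Ramp3 and Rgs2), with a median log2 fold change of 1.42, where 0.345% of all tested genes rose, and 7 rose with the block. No gene of all those tested passed without agonist replicate 2, vehicle replicate 2 or vehicle replicate 3 (limma; 1607, 1033 and 1115 genes at an unadjusted p under 0.05). Of 5 tested phosphodiesterases, which break down cyclic AMP, none passed without the block and 3 rose with it (Pde4d, Pde4b and Pde8a), where 4.09% of all tested genes rose. With the block kept, no gene passed without pair 2 (2558 at an unadjusted p under 0.05, limma) and 1 passed without pair 3. Ptger4, which encodes EP4, had 20.1, 17.8 and 20.9 FPKM in the agonist libraries and 25.7, 31.3 and 33.6 FPKM in the vehicle libraries, without overlap (adjusted p = 0.109, and 0.0310 with the block, limma). Rapgef3, the cyclic AMP sensor EPAC, was the single gene tested of 5 effectors outside PKA, at 2.15 ± 0.788 FPKM in the agonist libraries and 1.49 ± 0.573 FPKM in the vehicle libraries (SD, n = 3 each; adjusted p = 0.550, limma). Pkig, a PKA inhibitor, was the single inhibitor tested and did not pass (adjusted p = 0.798, limma).

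The sort was checked against marker genes. The 6 regulatory T cell markers were Foxp3, Il2ra, Ctla4, Ikzf2, Cd3e and Cd4. They summed to 1640.4 to 1809.9 FPKM in the agonist libraries and 1488 to 1588 FPKM in the vehicle libraries, without overlap. The highest of them, Il2ra, made up much of the sum, at 786 to 937 FPKM over all libraries. B cell, CD8 T cell, myeloid, NK cell, erythroid and platelet markers summed to at most 6.40 FPKM in any library, and none was at 0 in all libraries. Myeloid markers summed to 4.13 to 5.44 FPKM in the agonist libraries and 2.52 to 4.16 FPKM in the vehicle libraries. The part of these differences in the values of Prkar1a and Prkar2a was not tested. Read from the commonest ratio of coverage to FPKM, the libraries would hold 4.32 to 5.65 gigabases of aligned sequence. That reading is an inference, since the quantifier is not given. In each library, 11947 to 12259 genes reached 1 FPKM.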

How the data were processed

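RNA was sequenced in 6 libraries, grouped by their titles. Reads were trimmed and aligned with Trim Galore and HISAT2 to mm10, per the submitters' processing notes; strand setting, annotation release and quantifier: not given in the sources used here. As the file headers show, the authors deposited FPKM and coverage (signal) for each feature, used as deposited; the TPM column summed to between 1901346 and 1930242 and was not used. Fragment counts were not recovered, so precision is the spread between libraries. Coverage over FPKM took its commonest value in 35.2 to 35.8% of rows. That value was read as aligned gigabases, which assumes how the quantifier scaled FPKM. An identifier on several rows (15 to 16 a library) was represented by its highest row.

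The 9 members and the gene lists were chosen with earlier results of these data known. Genes with at least 1 FPKM in 3 libraries were tested as log2(FPKM + 1), a scale that understates changes of low genes. The test was limma 3.58.1 (trend, robust, statmod 1.5.0, R 4.3.3), with Benjamini-Hochberg adjustment and a threshold of 0.05. In data made for checking it, the test recovered most known log2 changes of 1. Its recovery of smaller changes, such as those of the members, is not given here. Shares and ratios were tested by exact permutation of libraries. Python 3.11.15, pandas 2.3.3, numpy 2.4.6 and matplotlib 3.10.9 were used. Named genes are the members, the regulatory T cell markers, and genes of the pathway lists that passed or were at most the 3 most abundant of their list. The 3 genes nearest in pattern to the member with the smallest p are named too. Other names (called with the block, or overlapping a member) were chosen after their values were seen.

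Replicate numbers were checked for pairing, with no p-value. Deviations from group means correlated at 0.512, 0.404 and 0.321 for same-numbered libraries, above a limit of 0.1 in every pair, and at -0.353 to 0.00209 for others. Deviations cancel out within a group, so the low values for others follow in part from the high ones and are no separate evidence. Same-numbered libraries thus shared variation, and the block was fitted too. The labels do not say what the numbers stand for. Alternatives were the pseudocount 0.1, other FPKM minimums, scalings, the coverage column, assembled loci and leaving out libraries.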

Additional observations from a re-analysis of the deposited data

How the results depend on the processing

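Without the replicate block, no alternative called a member (limma). With it, 1 member fell in the fit on FPKM and with assembled loci, quantile normalization, upper quartile scaling, no trend and no robust variances, or a pseudocount of 0.1 (settings chosen after seeing the data, apart from the block itself); this was Prkar2a each time. Block and coverage did not call it (adjusted p = 0.0501, limma). With the block and upper quartile scaling, 1 member rose, Prkar1a, where 547 of the 12186 tested genes rose. The block fits that called Prkar2a called 319 (no trend, not robust) to 781 (block on FPKM) of all tested genes lower. Block and coverage called 1206 lower.

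Over all tested genes, 42 were called higher and 6 lower; the counts were 2 and 0 with no filter (2253 at an unadjusted p under 0.05, limma), 68 higher with upper quartile scaling, 85 and 11 from coverage, 498 and 781 with the replicate block (151 and 90, 0 and 0, and 1 and 0 with the block kept and pair 1, 2 or 3 left out), and 0 to 107 higher and 0 to 26 lower with 1 library left out. Prkar1a kept its sign in every alternative, at log2 fold changes of 0.17 to 0.24, and Prkar2a at -0.48 to -0.18. Signs turned for small values: Adcy6 was -0.067 with assembled loci, with or without the block, and -0.12 to 0.24 with libraries left out, and Prkacb -0.0073 to 0.15. The difference in the share of Adcy7 was -0.626 percentage points from coverage. With libraries left out, the difference in share spanned -0.0431 to 0.169 points for Adcy9, -0.0791 to 2.05 for Prkaca and -2.56 to 0.181 for Prkacb. The causes were not tested. No counting error could be given, since the tables hold no fragment counts.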
